A study of Mus musculus with 8 samples.

Results

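A group of 9 genes that switch mouse tissues toward burning fat in fasting was followed in lactating mammary glands with and without Th-POK. They were 2 PPAR receptors (Ppara and Ppard), 2 coactivators that work with them (Ppargc1a and Ppargc1b) and 5 classic targets (Pdk4, Angptl4, Ucp2, Ucp3 and Cpt1b). The 9 were chosen by symbol, with earlier results of these data known, among 18749 genes with a probe on the array and 14137 genes tested. RNA was taken from the No. 4 mammary gland of female mice on the C57/Bl6 background at lactation day 1, with 4 wild-type dams (WT), 4 Th-POK knockout dams (KO) and 1 array per dam. The knockout removes Th-POK, a zinc finger transcription factor encoded by Zbtb7b and best known for setting the helper T cell fate, from every cell of the animal and not from the gland epithelium alone. Both genotypes were age matched and given standard chow, and no fasted group is among the samples.

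In the Th-POK KO glands the signal of Ppargc1a was 2.39-fold higher, and it was the only one of the 9 genes that passed the test. It passed narrowly, and the call was lost in 7 of the 8 fits with 1 array left out. Angptl4 had the largest difference of the 9, 4.29-fold higher on average, but its spread between WT dams was wide and it did not pass. Ppard was 1.29-fold lower on average and narrowly missed the threshold. The intervals of the other 6 genes reached to both sides of 0.

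PPAR alpha and PPAR delta are nuclear receptors that bind fatty acids and, paired with a retinoid X receptor, switch on genes of fatty acid uptake and oxidation. In fasting, when adipose tissue releases fatty acids, this programme rises in liver, muscle and heart and spares glucose. The lactating gland runs largely the other way: its alveolar cells use glucose and plasma lipid to build milk fat, while the fat pad around them still holds adipocytes. In whole-gland RNA, a change in how many cells of a type are present and a change in RNA per cell cannot be told apart.

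Values below are log2 intensities, quantile-normalized across the 8 arrays, so that 1 unit is a factor of 2. They are listed for WT replicates 1 to 4 and then KO replicates 1 to 4. A gene was called when its p from limma, adjusted by Benjamini-Hochberg over all 14137 genes, was under 0.05. The 9 genes had 14 probes in all, and each of the 14 was well above background on all 8 arrays. Where a gene had more than 1 probe the brightest was used, and the others are given beside it. The values of those other probes come from a separate limma fit, with p adjusted over 20838 probes. On single arrays, the share of probes above background by that measure was 66.8% to 75.3%, and no spot was saturated. The Zbtb7b probe lay between 9.90 and 10.42 on the WT arrays and was not well above background on any KO array, at least 81.5-fold lower (limma adjusted p = 5.71e-09). Each genotype had its own slide, so that the effects of slide and genotype cannot be told apart in any value here.

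The share of members called was 1 of 9 (11.1%), beside 16.5% of all genes tested, and the share of all genes called higher in KO was 7.53% and lower 8.96%. That gene was also at least 2-fold different, beside 4.37% of all genes. WT and KO arrays did not overlap for 2 of the 9, Ppargc1a and Ppard, beside 24.1% of all genes. At an unadjusted p under 0.05 there were 3 members, Ppargc1a, Ppard and Angptl4. The mean was higher in KO for 5 members and lower for 4, and the median difference was 0.19 beside -0.02 over all genes. The shares called in either direction and without overlap (1 and 2 of 9) were not above those of all genes, and 1 gene more or less decides how any such share of 9 compares.

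**Figure D1:**
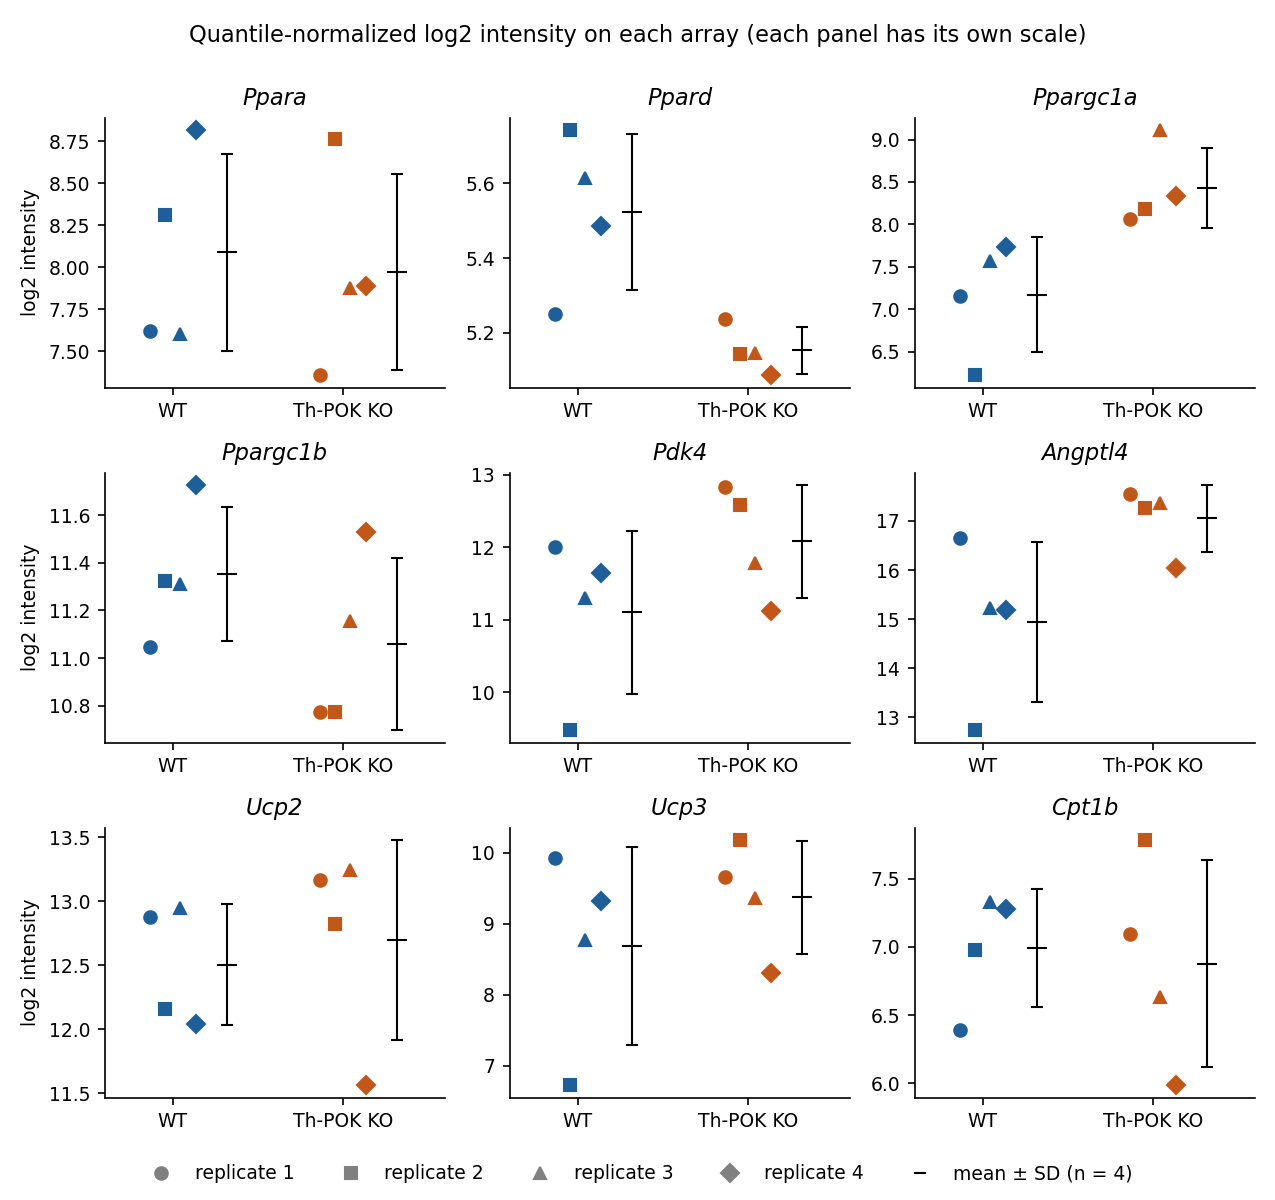
Log2 intensity of the 9 genes on each array, with WT on the left and Th-POK KO on the right of each panel, a symbol for each replicate number, and bars for the mean ± SD of 4 arrays; each panel has its own vertical scale. Ppargc1a and Ppard are the panels in which the genotypes do not overlap, and WT replicate 2 is the lowest of the 8 arrays for Ppargc1a, Pdk4, Angptl4 and Ucp3.

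Ppara encodes PPAR alpha, the receptor that drives the fasting response of the liver. Its probe read 7.62, 8.31, 7.60 and 8.82 on the WT arrays and 7.36, 8.76, 7.88 and 7.89 on the KO arrays. Each genotype held low and high arrays, and the groups overlapped through most of their range. The difference, KO minus WT, was -0.12 with a 95% interval from -0.93 to 0.69 (SE 0.36, limma adjusted p = 0.835), and changes of either sign lie within that interval. Its sign turned when WT replicate 4 (0.13) or KO replicate 1 (0.09) was left out.

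Ppard encodes PPAR delta, the broadly expressed relative that controls fatty acid oxidation in muscle and fat. Its WT arrays read 5.25, 5.74, 5.61 and 5.49, and its KO arrays 5.24, 5.14, 5.14 and 5.09. Every KO array was below every WT array, but WT replicate 1 and KO replicate 1 were almost level, and the 4 KO arrays lay much closer together (SD 0.06) than the 4 WT arrays (SD 0.21). The difference of -0.37 (SE 0.12, 95% interval -0.65 to -0.09) had a limma adjusted p of 0.0664. The gene was called when arrays were scaled to their 75th percentile (-0.41, limma adjusted p = 0.0489) or when WT replicate 1 was left out (-0.46, limma adjusted p = 0.0265). With normexp background correction the difference was -0.14 (limma adjusted p = 0.211).

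Ppargc1a encodes PGC-1alpha, the coactivator that fasting and cold induce through cAMP signalling and that raises mitochondrial and fatty acid oxidation genes. It read 7.15, 6.22, 7.57 and 7.73 on the WT arrays and 8.07, 8.19, 9.12 and 8.33 on the KO arrays. The lowest KO array was above the highest WT array, by 0.34, while WT replicate 2 stood low and KO replicate 3 stood high within their groups. The means were 7.17 ± 0.68 in WT and 8.42 ± 0.47 in KO (SD, n = 4 each), a difference of 1.26 (SE 0.36, 95% interval 0.44 to 2.07) or 2.39-fold with an interval from 1.36-fold to 4.19-fold, and the limma adjusted p was 0.0453. Its second probe, A_52_P5945, read 6.14, 5.63, 6.22 and 6.40 in WT and 6.37, 6.42, 7.26 and 6.55 in KO. That probe was also higher on average in KO, by 0.55 (SE 0.23), but KO replicate 1 was below WT replicate 4 and it was not called (limma adjusted p = 0.130).

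The call of Ppargc1a was close to the threshold. It was lost when any single array other than WT replicate 4 was left out, with differences over the 8 such fits from 0.94 to 1.44 and limma adjusted p from 0.0443 to 0.109. It was lost too by the methods' t-test, which does not share the spread between genes (adjusted p = 0.0985), with no filter on dim probes (limma adjusted p = 0.0698) and when the probes were averaged (0.91, limma adjusted p = 0.0647). The direction was higher in KO in every setting run. It stayed called with 75th percentile scaling, normexp background correction, the authors' own value table and the replicate number as a block, with limma adjusted p of 0.0425, 0.0413, 0.0452 and 0.0259.

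**Figure D2:**
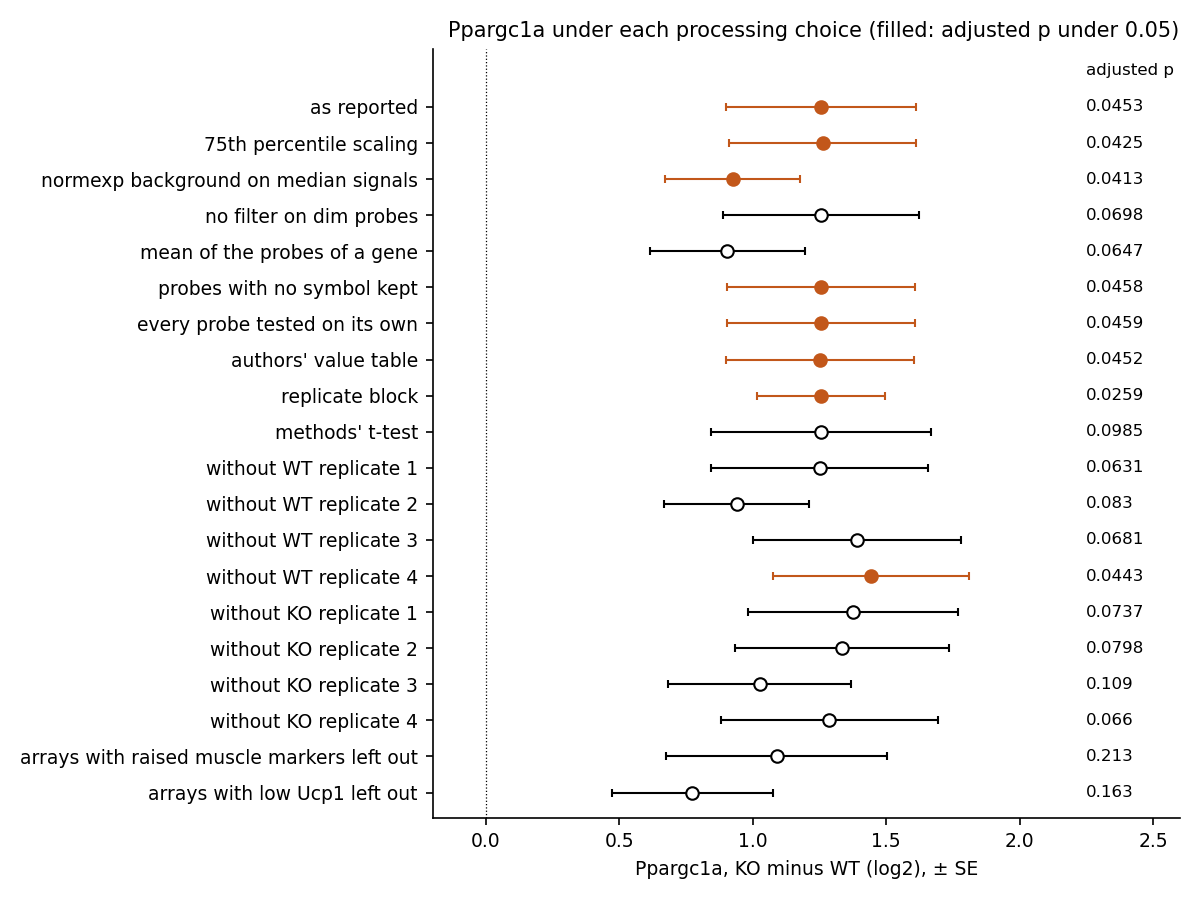
Difference of Ppargc1a between KO and WT on the log2 scale (points) ± SE (bars) under each processing choice, one per row, with the adjusted p on the right; filled points have an adjusted p under 0.05. All points lie to the right of 0, from 0.77 to 1.44, and the adjusted p moves between 0.0259 and 0.213.

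Ppargc1a is also a gene of brown fat and of skeletal muscle, and markers of both tissues varied between these glands. Ucp1, the heat-producing uncoupling protein that defines brown adipocytes, read 3.02, 1.74, 11.00 and 11.09 in WT and 9.0, 12.85, 11.43 and 5.80 in KO, and was not well above background on WT replicates 1 and 2. The mean of the 8 measured brown adipocyte markers other than Ppargc1a ranged from 7.78 to 10.69 in WT and from 9.41 to 10.62 in KO. The arrays with the least Ucp1, WT replicates 1 and 2, were also those with the least Ppargc1a. The other arrays did not keep to that order. KO replicate 4 had the next lowest Ucp1 (5.80) but Ppargc1a at 8.33, above KO replicates 1 and 2 (8.07 and 8.19). WT replicates 3 and 4, with Ucp1 at 11.00 and 11.09, had Ppargc1a at 7.57 and 7.73, below every KO array. Of the 9 tested brown adipocyte markers, Ppargc1a included, the mean was higher in KO for 6 and lower for 3. The part of brown adipocytes in the Ppargc1a difference was not tested.

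Skeletal muscle markers were raised on KO replicates 1 and 3. The mean of 11 measured muscle markers lay between 6.72 and 7.16 in WT and read 8.42, 6.71, 9.28 and 6.65 in KO, and Ckm, Myh4, Actn3 and Pvalb were well above background only on those same 2 KO arrays. The part of muscle in the Ppargc1a difference was not tested either. With KO replicates 1 and 3 left out the difference was 1.09 (limma adjusted p = 0.213), and with WT replicates 1 and 2 left out it was 0.77 (limma adjusted p = 0.163). Both fits rest on 6 arrays, and over the whole array 49 and 464 genes were called in them, beside 2331 with all 8.

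**Figure D3:**
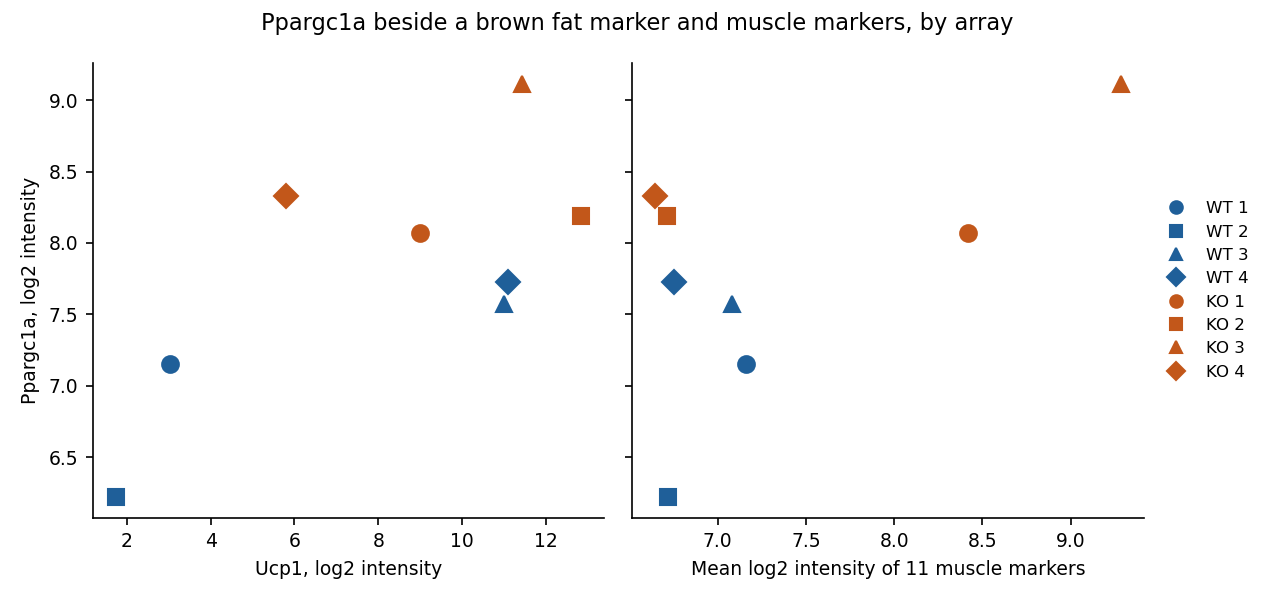
Ppargc1a on each array (vertical axis, log2 intensity) against Ucp1 on the left and the mean of 11 skeletal muscle markers on the right (horizontal axes, log2 intensity), with WT in blue, KO in orange and a symbol for each replicate number. KO replicates 1 and 3 stand apart on the muscle axis at 8.42 and 9.28, and WT replicates 1 and 2 on the Ucp1 axis at 3.02 and 1.74. The other arrays share ranges: KO replicates 2 and 4 (6.71 and 6.65) lie beside WT (6.72 to 7.16) on the muscle axis. WT replicates 3 and 4 (11.00 and 11.09) lie within the KO range of Ucp1 (5.80 to 12.85).

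The 3 genes whose values over the 8 arrays were most like those of Ppargc1a were Snx30, a sorting nexin (Pearson r = 0.989), Klhl18, a kelch protein (r = 0.982), and Zfp932, a zinc finger protein (r = 0.972). These are descriptions over arrays that share a genotype split, and the gene ranked number 100 still had r = 0.901. None of the other 8 members was among the 3.

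Ppargc1b encodes PGC-1beta, the related coactivator that also serves SREBP-driven lipid synthesis. Its values were 11.05, 11.32, 11.31 and 11.73 in WT and 10.78, 10.77, 11.16 and 11.53 in KO. KO replicates 1 and 2 were the lowest of the 8 arrays, but KO replicate 4 was above 3 of the WT arrays. The difference was -0.29 (SE 0.21, 95% interval -0.77 to 0.18, limma adjusted p = 0.339), and the second probe, A_52_P526724, gave -0.32 (limma adjusted p = 0.357). The mean of this coactivator was thus on the other side of 0 from that of Ppargc1a, in values that were not called.

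Pdk4 encodes the pyruvate dehydrogenase kinase that fasting induces most strongly. It read 12.00, 9.48, 11.31 and 11.64 in WT and 12.83, 12.59, 11.78 and 11.13 in KO. Apart from WT replicate 2, which was far below the rest, the 2 groups overlapped, with KO replicate 4 below 3 of the WT arrays. The difference of 0.98 (SE 0.58, 95% interval -0.34 to 2.29, limma adjusted p = 0.255) dropped to 0.43 without WT replicate 2 (limma adjusted p = 0.533).

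Angptl4 encodes a secreted inhibitor of lipoprotein lipase, the enzyme that releases fatty acids from plasma triglyceride, and it rises with fasting in adipose tissue. Its values were 16.66, 12.74, 15.22 and 15.18 on the WT arrays and 17.54, 17.25, 17.37 and 16.04 on the KO arrays. KO replicates 1, 2 and 3 lay above all WT arrays and close together, and KO replicate 4 was below WT replicate 1. The means were 14.95 ± 1.63 in WT and 17.05 ± 0.68 in KO (SD, n = 4 each), and the difference was 2.10 (SE 0.74, 95% interval 0.40 to 3.80), or 4.29-fold with an interval from 1.32-fold to 13.9-fold. The limma adjusted p was 0.0820. Without WT replicate 1 the gene was called (2.67, limma adjusted p = 0.0300), and without WT replicate 2, at 12.74 the lowest array, the difference was 1.36 (limma adjusted p = 0.124).

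Ucp2 encodes a mitochondrial carrier found in many tissues and abundant in immune cells. It read 12.88, 12.16, 12.94 and 12.04 in WT and 13.17, 12.82, 13.25 and 11.56 in KO. Both the highest and the lowest of the 8 values were KO arrays. The difference was 0.19 (SE 0.39, 95% interval -0.70 to 1.08, limma adjusted p = 0.75), and its other 2 probes, A_52_P499675 and A_52_P90265, gave -0.05 and 0.38 (limma adjusted p = 0.938 and 0.486). With KO replicates 1 and 3 left out the sign turned (-0.31).

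Ucp3 encodes the uncoupling protein of skeletal muscle and brown fat, which fasting induces along with fatty acid oxidation. Its WT arrays read 9.93, 6.72, 8.77 and 9.33, and its KO arrays 9.65, 10.18, 9.36 and 8.30. WT replicate 2 was again the lowest, and the other 3 WT arrays lay within the range of the KO arrays. The difference of 0.69 (SE 0.68, 95% interval -0.86 to 2.23, limma adjusted p = 0.495) came to 0.03 without WT replicate 2.

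Cpt1b encodes the muscle and brown fat form of carnitine palmitoyltransferase, the gatekeeper of fatty acid entry into mitochondria. It read 6.39, 6.98, 7.33 and 7.28 in WT and 7.10, 7.79, 6.64 and 5.98 in KO, with the highest and the lowest value both in KO. The difference was -0.12 (SE 0.37, 95% interval -0.97 to 0.74, limma adjusted p = 0.843), while the second probe, A_52_P625508, gave 0.29 (limma adjusted p = 0.595). The 2 probes thus disagreed in sign, and their mean gave 0.09.

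**Figure D4:**
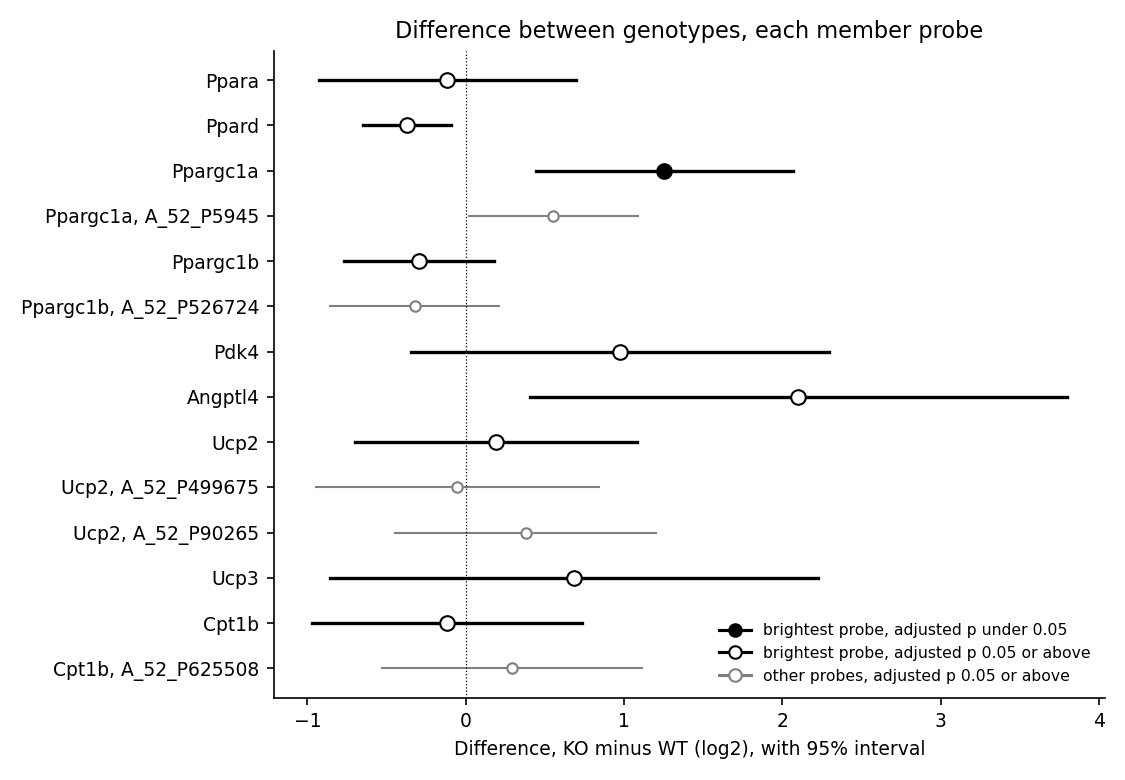
Difference between KO and WT (log2) for each of the 14 probes, with bars for the 95% interval; black marks the brightest probe of a gene, gray its other probes, and the filled point the 1 with an adjusted p under 0.05. Black points come from the fit over genes and gray points from the separate fit over 20838 probes. The intervals of the brightest Ppard, Ppargc1a and Angptl4 probes lie to one side of 0, and the widest intervals are those of Angptl4, Ucp3 and Pdk4.

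Pdk4, Angptl4 and Ucp3 varied together from dam to dam, within as well as between genotypes. Relative to its own mean over the 8 arrays, WT replicate 2 was lower by 2.12 for Pdk4, by 3.26 for Angptl4 and by 2.31 for Ucp3. WT replicate 1 was the highest WT array and KO replicate 4 the lowest KO array for each of the 3. This order was not particular to them. The mean of the 32 other PPAR targets described below was also lowest on WT replicate 2 (11.47). Its highest WT array was replicate 1 (12.08) and its lowest KO array replicate 4 (11.84). The main axis of variation over all genes tested (first principal component, 52.9% of the variance) put these arrays in the same places. WT replicates 2 and 1 and KO replicate 4 scored -57.2, -7.21 and 17.0 (sign positive for KO replicate 1). Over the 8 arrays, Pearson r was 0.95 for Pdk4 with Ucp3 (Spearman rho 0.93), 0.92 for Pdk4 with Angptl4 (rho 0.83) and 0.87 for Angptl4 with Ucp3 (rho 0.71). Without WT replicate 2 the same 3 values of r were 0.84, 0.76 and 0.59. These pairs were chosen after their values were seen, the arrays share 1 genotype split, and the values of r are a description without a test. The range among the 4 WT dams, 2.52 for Pdk4, 3.92 for Angptl4 and 3.20 for Ucp3, was larger than the difference between genotypes for each gene. With KO replicates 1 and 3, which carried the muscle markers, left out, the differences were 0.75, 1.70 and 0.55 for Pdk4, Angptl4 and Ucp3, and with WT replicates 1 and 2, low in Ucp1, left out they were 0.61, 1.85 and 0.32, none of them called.

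**Figure D5:**
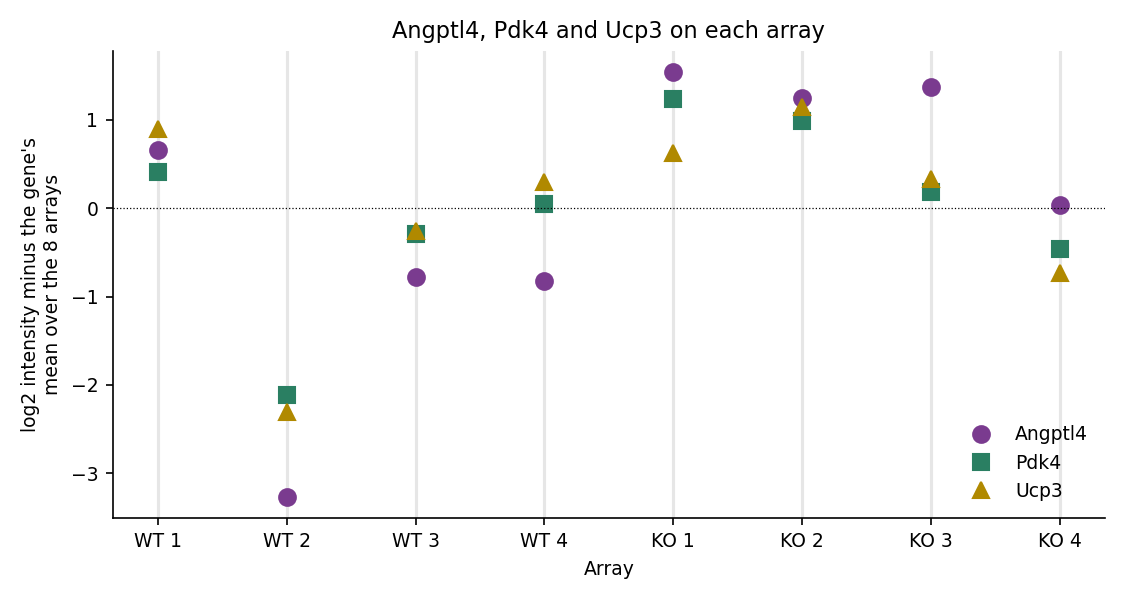
Log2 intensity of Angptl4, Pdk4 and Ucp3 on each array (horizontal axis, WT and KO replicates 1 to 4) minus the mean of that gene over the 8 arrays. The 3 genes are lowest together on WT replicate 2, at -3.26, -2.12 and -2.31, and each is lowest among the KO arrays on replicate 4.

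A promoter sequence, 250 bases before to 50 after a gene start in RefSeq (GRCm38.p6), was matched for 6 of the 9 members, Ppara, Ppard, Ppargc1a, Pdk4, Ucp2 and Ucp3. Both strands were searched for the letters of the PPAR response element, AGGTCANAGGTCA, for the half-site AGGTCA that it holds in 2 copies, for the cAMP response element TGACGTCA, for its half-site TGACG and for the forkhead motif TGTTTAC. No full element of the 3 kinds was in these 6 windows, beside 0.0396%, 1.79% and 3.65% of all 32851 promoters. AGGTCA was in 1 of the 6, that of Ucp3, beside 16.3% of all promoters. TGACG was in 5 of the 6, all but Pdk4, beside 20.8%. The Ucp3 half-sites start 149 and 44 bases upstream of its gene start, and the half-site of Ppargc1a, the member that was called, starts 49 bases upstream and reads on the opposite strand. They are printed in the direction of the gene with the matched letters in capitals. Ucp3 lies on the plus strand at chr7:100472830-100472859 and chr7:100472935-100472964, and Ppargc1a on the minus strand at chr5:51567757-51567786.
Ucp3, upstream: ttaaagagccccAGGTCAcggaagctaaac
Ucp3, near the start: gaattaggtttcAGGTCAgctggtgcacag
Ppargc1a: ggtgccctcccaCGTCActgagctccagtg
A match is a description of these letters and not a site of binding. Ucp3 and Ucp2 are neighbouring genes on chromosome 7. Ucp2 also had its lowest KO array on replicate 4 (11.56), but its lowest WT array was replicate 4 (12.04) and its highest replicate 3 (12.94). Correlation of Ucp2 with Pdk4 and Angptl4 was not computed.

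Among the receptors and cofactors that PPARs work with, 2 of 24 tested genes were called, beside 16.5% of all genes. Prkaa1, a catalytic subunit of AMP-activated kinase, was higher in KO by 0.40 (limma adjusted p = 0.0403), and Lpin1, which partners PGC-1alpha and also makes diacylglycerol, was lower, at -1.18 (limma adjusted p = 0.0483). The third PPAR, Pparg, gave -0.05 (95% interval -0.28 to 0.18, limma adjusted p = 0.754) and the partner receptor Rxra -0.05 (-0.34 to 0.23, limma adjusted p = 0.781). Each of the calls of Prkaa1 and Lpin1 was lost in 7 of the 8 fits with 1 array left out. The intervals of Pparg and Rxra were narrow beside those of the fasting targets. The median over the 24 was 0.05.

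Of 32 other targets of PPAR alpha and delta that could be tested, 3 were called, all higher in KO. Over all genes tested 16.5% were called, and 7.53% were called higher. Plin5, a lipid droplet coat protein of oxidative tissues, read 8.76, 7.88, 8.68 and 8.87 in WT and 9.75, 10.65, 9.91 and 9.63 in KO. Its WT and KO arrays did not overlap, as in 24.1% of all genes, and it differed by 1.43 (SE 0.28, limma adjusted p = 0.0183). Etfdh, which passes electrons from fatty acid oxidation to ubiquinone, was higher by 0.79 (limma adjusted p = 0.0149), and Acadm, the medium-chain acyl-CoA dehydrogenase, by 0.66 (limma adjusted p = 0.0361). With 1 array left out, the calls of Plin5 and Etfdh were each lost in 1 of the 8 fits and that of Acadm in 5. The mean was higher in KO for 24 of the 32 and lower for 8, with a median of 0.27 beside -0.02 over all genes. Cpt1a, the liver form of the gatekeeper enzyme and the closest relative of Cpt1b, gave 0.78 (95% interval -0.20 to 1.77, limma adjusted p = 0.222).

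Among relatives of the other members 4 of 29 tested genes were called (13.8%), beside the 16.5% of all genes. In the pyruvate dehydrogenase group 1 of 11 was called, Pdk3, a kinase of the same enzyme as Pdk4, higher by 0.84 (limma adjusted p = 0.0357), while Pdk1 gave -0.23 (95% interval -0.83 to 0.37, limma adjusted p = 0.562). Among 4 relatives of the uncoupling proteins Slc25a27 was called (0.82, limma adjusted p = 0.0415), and Ucp1, measured on only 2 of the 4 WT arrays, was not. The calls of Pdk3 and Slc25a27 were each lost in 6 of the 8 fits with an array left out, and that of Crot in 3. Of 7 relatives of Cpt1b only Crot, the peroxisomal carnitine octanoyltransferase, was called (0.58, limma adjusted p = 0.0186). Of 7 genes around Angptl4 only Angptl6 was called, at -0.60 (limma adjusted p = 0.0117). Lpl, the enzyme that Angptl4 inhibits, gave -0.11 (95% interval -1.03 to 0.80, limma adjusted p = 0.857), and its sign turned in 3 of the 8 fits with an array left out.

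Fasting genes driven by FOXO factors or glucocorticoids, the other main inputs to Pdk4 and Angptl4, had 4 of 17 called. Over all genes tested the share called was 16.5%. Gadd45a, Sesn3 and Ccng2, which slow growth or the cell cycle, were higher in KO by 1.21, 1.04 and 1.38 (limma adjusted p = 0.0183, 0.0279 and 0.0387). Sgk1, a kinase that glucocorticoids induce, went the other way at -1.42 (limma adjusted p = 0.0171). With 1 array left out, Gadd45a and Sgk1 each lost the call in 1 of 8 fits, Sesn3 in 3 and Ccng2 in 6. The list held genes on both sides, with a median of 0.18.

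Markers of the cell types in the gland were read the same way, beside 16.5% of all genes called, 7.53% higher and 8.96% lower in KO. Adipocyte markers had 2 of 13 called higher, Cfd (0.68) and Plin1 (0.71), and their mean lay between 12.42 and 12.97 in WT and 12.84 and 13.13 in KO. Of these 13, the mean was higher in KO for 10 and lower for 3. Lep (-0.73) and Gpd1 (-0.54) were among the lower ones and were not called. Neutrophil markers had 3 of 9 called higher, Camp, Ngp and Ltf, and their mean lay between 7.87 and 8.60 in WT and 9.62 and 10.57 in KO, without overlap. Camp and Ngp were not well above background on any WT array and entered the test only through the KO arrays, so the filter favoured their direction. Both the count of 3 and the list mean include these genes, and neither was computed without them. Brown adipocyte markers had 1 of 9 called, Ppargc1a itself, and muscle markers 1 of 11, Tnnt3 (-1.28). Macrophage, endothelial and basal epithelial markers had 0 of 11, 0 of 10 and 0 of 10 called by limma, with 0, 2 and 1 at an unadjusted p under 0.05, and the methods' t-test, an unmoderated test per gene adjusted the same way, called 0 in each. T and B cell markers had Cd79b (1.05) higher and Cd3e (-0.60) and Cd4 (-0.43) lower among 12, fibroblast markers Dcn (0.50) among 10, and luminal markers Cdh1, Krt18 and Epcam (0.88, 0.67 and 0.52) among 11. The luminal markers went both ways, with the mean higher in KO for 7 and lower for 4 and a median of 0.07. Elf5 (-0.35) and Lalba (-0.45) were among the lower ones and were not called. With 1 array left out, Camp, Ngp, Ltf and Cdh1 were called in all 8 fits, while Cfd, Dcn and Krt18 were lost in 5 of 8, Cd3e and Tnnt3 in 6, and Plin1, Epcam, Cd4 and Cd79b in 7. The part of any of these cell types in the values of the 9 genes was not tested.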

How the data were processed

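RNA of 8 mammary glands was hybridized to Agilent mouse arrays in 1 colour (Cy3). Per the file headers, Agilent Feature Extraction 10.7 subtracted background from the deposited intensities and removed spatial trends array by array, with no scaling across arrays. A second deposited table holds log2 values that the authors had quantile-normalized in GeneSpring, with a median of 6.32 per array, and served as an alternative.

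Here log2 of the processed intensities was quantile-normalized over the 8 arrays. Marked outlier spots (64 to 100 per array) were left out, and spots of a probe were averaged. Probes (41174) were named through their accessions and the RefSeq GRCm38.p6 gene table (27479 matched). The array design names mouse build mm9, so no probe was placed by coordinates. Gene coordinates in that table served only to find the neighbours of Ucp3. A probe was kept if every array of WT, or every array of KO, read it well above background, and the brightest kept probe stood for its gene. Genotypes were compared with limma 3.58.1 in R 4.3.3, checked on simulated data. The number of arrays limits the precision. Promoters came from RefSeq GRCm38.p6.

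Named in the text were the 9 genes, Zbtb7b, called genes of the lists, the closest relatives of members and the 3 genes most like the called member. The members, the lists and the rules were chosen with earlier results of these data known. Same-numbered WT and KO arrays deviated together from their group means (r = 0.16 to 0.30 for the 4 numbers), so the replicate number was tried as a block. The mean of -0.08 for other pairs is no separate baseline, because centring on group means ties it to the same-number values. Other alternatives were 75th percentile scaling, normexp on the median signals (in place of mean signals, which were not used here), no filter, the mean of probes, unnamed probes kept, every probe on its own, the methods' t-test, and arrays left out. Leaving out arrays with raised muscle markers or low Ucp1 was chosen after seeing the data.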

Additional observations from a re-analysis of the deposited data

How the results depend on the processing

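The number of called genes was 2331 of 14137 (16.5%) over the whole array, 1 among the 9 members and 27 among 202 tested genes of the lists. With 1 array left out, these counts ranged from 519 to 3076, from 0 to 2 and from 6 to 31, each highest without WT replicate 1. Over the whole array 762, 984, 732, 953 and 519 genes were called without WT replicate 2 or 3 or KO replicate 1, 2 or 3. The methods' t-test gave 1389, 0 and 12 after adjustment, and 4765 genes and 2 members (Ppard and Ppargc1a) at their unadjusted threshold. With KO replicates 1 and 3 left out the counts were 49, 0 and 1, and with WT replicates 1 and 2 left out they were 464, 0 and 6. Without the filter on dim probes 0 members and 14 list genes were called, with the mean of probes 0 members, and with 75th percentile scaling 2 members. With the replicate number as a block, 2762 genes and 1 member were called, and the block changed no call of a member. The numbers come from the sample titles, and whether same-numbered samples were paired is not known.

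Leaving out 1 array gave differences from -0.38 to 0.13 for Ppara, from -0.42 to 0.18 for Cpt1b and from -0.34 to 0.18 for Lpl, so these signs turned, and the mean of probes gave 0.0876 for Cpt1b. Without KO replicates 1 and 3 the sign also turned for Ppara (0.24), Ucp2 (-0.31), Pparg (0.0715), Rxra (0.0791), Pdk1 (0.0098) and Lpl (0.45), and without WT replicates 1 and 2 for Ucp1 (-1.28). None of these was called in any setting, and the cause was not tested. The other 6 members kept their direction in every setting. With 4 arrays a group and WT spreads above 1 log2 unit for Angptl4, Pdk4 and Ucp3, 2-fold differences in those genes were within the error.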
